A study of Mus musculus with 36 samples.

Results

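The 9 genes described here belong to the Nodal, Lefty and Activin pathway of pluripotent cells. They were chosen by name, Nodal, Gdf3, Tdgf1, Acvr2b, Lefty1, Lefty2, Foxh1, Smad7 and Skil, and were found by Ensembl identifier in a table of read counts for 49671 mouse genes. All 9 were present, and all 9 were among the 23501 genes that passed the filter on low counts. The signal starts with a ligand of the TGF-beta family, which binds type II and type I receptor kinases. Nodal and Gdf3 also need the co-receptor Tdgf1 (Cripto), whereas Activin A, the factor supplied in one of the media, does not. The receptors phosphorylate Smad2 and Smad3, which enter the nucleus with Smad4 and work with partners such as Foxh1. Lefty1 and Lefty2 are secreted inhibitors and well-known targets of the same signal, so they report it and limit it. In the mouse embryo the pathway maintains the epiblast and then patterns the mesendoderm, and cells of the epiblast state are grown with Activin for that reason.

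The study sequenced poly(A)-selected RNA of mouse embryonic stem cells from 3 lines, labelled Bod1L, Setd1a and Mll2. BOD1L and SETD1A are subunits of one complex that methylates lysine 4 of histone H3, and Mll2 is the older name of Kmt2b, another methyltransferase of that residue. Each line was sampled as wild type (WT) and knockout (KO) in 3 media with 2 biological replicates, which made 18 groups and 36 libraries. The 2i medium held LIF, the MEK inhibitor PD0325901 and the GSK3 inhibitor CT99021 and its cells are labelled naive. The FCS medium held LIF with fetal calf serum and its cells are labelled cycling embryonic stem cells. The EpiSC medium held Activin A and FGF2 and its cells are labelled epiblast-like. Each knockout title names tamoxifen and no wild-type title does, so the drug and the genotype cannot be told apart. How the genes were deleted, from which strain and in how many clones is not stated in the labels.

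The libraries held 24490158 to 40591108 counted reads. Levels are given as counts-per-million values (CPM) on library sizes scaled by the TMM method, and levels of different genes are compared only as RPKM, which divides CPM by the gene's length in kilobases. Bod1l itself was at 33.6 to 62.2 CPM in the Bod1L knockout libraries and at 166 to 345 CPM in wild type. Setd1a was at 37.3 to 43.8 CPM against 40.9 to 58.8 CPM (adjusted p = 0.0957, edgeR), and Kmt2b in the Mll2 line was at 113 to 145 CPM against 89.6 to 210 CPM (adjusted p = 0.744, edgeR). The counts of the last 2 genes thus did not separate knockout from wild type, and knockout is used below as the labels give it. The 10 naive markers summed to 3280 to 4870 CPM in 2i, 989 to 3870 CPM in FCS and 69.8 to 855 CPM in EpiSC medium, and all 10 had counts in each library of the first 2 media. Markers of mesenchyme or feeder cells, 9 genes, summed to 2.15 to 12.1 CPM in 2i, 15.2 to 402 CPM in FCS and 148 to 6760 CPM in EpiSC medium, where all 9 had counts in every library. The 6 primitive endoderm markers summed to 6.17 to 20.1 CPM in 2i and 16.7 to 150 CPM in EpiSC medium. For the 6 neural markers these sums were 37.8 to 89 CPM and 220 to 855 CPM, and for the 7 trophoblast markers 3.6 to 108 CPM and 3.53 to 32.4 CPM. In the file header 13 libraries had higher library numbers than the other 23, namely the 12 in EpiSC medium and replicate 1 of the Setd1a knockout in 2i. What the numbers stand for is not stated. EpiSC medium and whatever the higher numbers mark therefore cannot be told apart. In bulk RNA, fewer cells of a type and less RNA per cell cannot be told apart either.

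Lefty1 and Lefty2 lie on the same strand of chromosome 1, Lefty2 (ENSMUSG00000066652) at chr1:180893108-180899103 and Lefty1 (ENSMUSG00000038793) at chr1:180935022-180938400 in GRCm38. Their coding sequences are 1104 bases long each and align without a gap. They are identical at 1014 positions, or 91.8%, with a longest identical stretch of 140 bases. There are 6 identical stretches of at least 50 bases, 3 of them of at least 100, and a read wholly within a stretch fits both genes. Whether and where such reads were counted is not known, so the split of reads between the genes is uncertain by an amount that was not measured. Tdgf1 (ENSMUSG00000032494, chr9:110939603-110946158) has a processed copy, Tdgf1-ps1, which took 620 to 7374 counts a library, equal to 14.4% of the Tdgf1 counts in sum. Reads may be divided between these as well, but their sequences were not aligned.

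Nodal (ENSMUSG00000037171, chr10:61417972-61425338), the ligand after which the pathway is named, had a mean of 40 RPKM over the 36 libraries. Gdf3 (ENSMUSG00000030117, chr6:122605403-122610087), a second ligand that acts through the same co-receptor, had a mean of 32.4 RPKM. The co-receptor Tdgf1 had the highest mean of the 9 genes, 211 RPKM, and the type II receptor Acvr2b (ENSMUSG00000061393, chr9:119402118-119434995) the lowest, 10.7 RPKM. Between them stood Lefty1 with 73.9 RPKM and Lefty2 with 28.6 RPKM. The nuclear partner Foxh1 (ENSMUSG00000033837, chr15:76668284-76669948) had a mean of 25.6 RPKM. Both Smad7 (ENSMUSG00000025880, chr18:75367529-75395935), an inhibitory Smad induced by the signal, and Skil (ENSMUSG00000027660, chr3:31095058-31122577), which encodes the Smad corepressor SnoN, had a mean of 17.1 RPKM. The lowest count of any member was 12, for Gdf3 in replicate 1 of Mll2 wild type in EpiSC medium, and the highest was 37320, for Tdgf1.

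**Figure D1:**
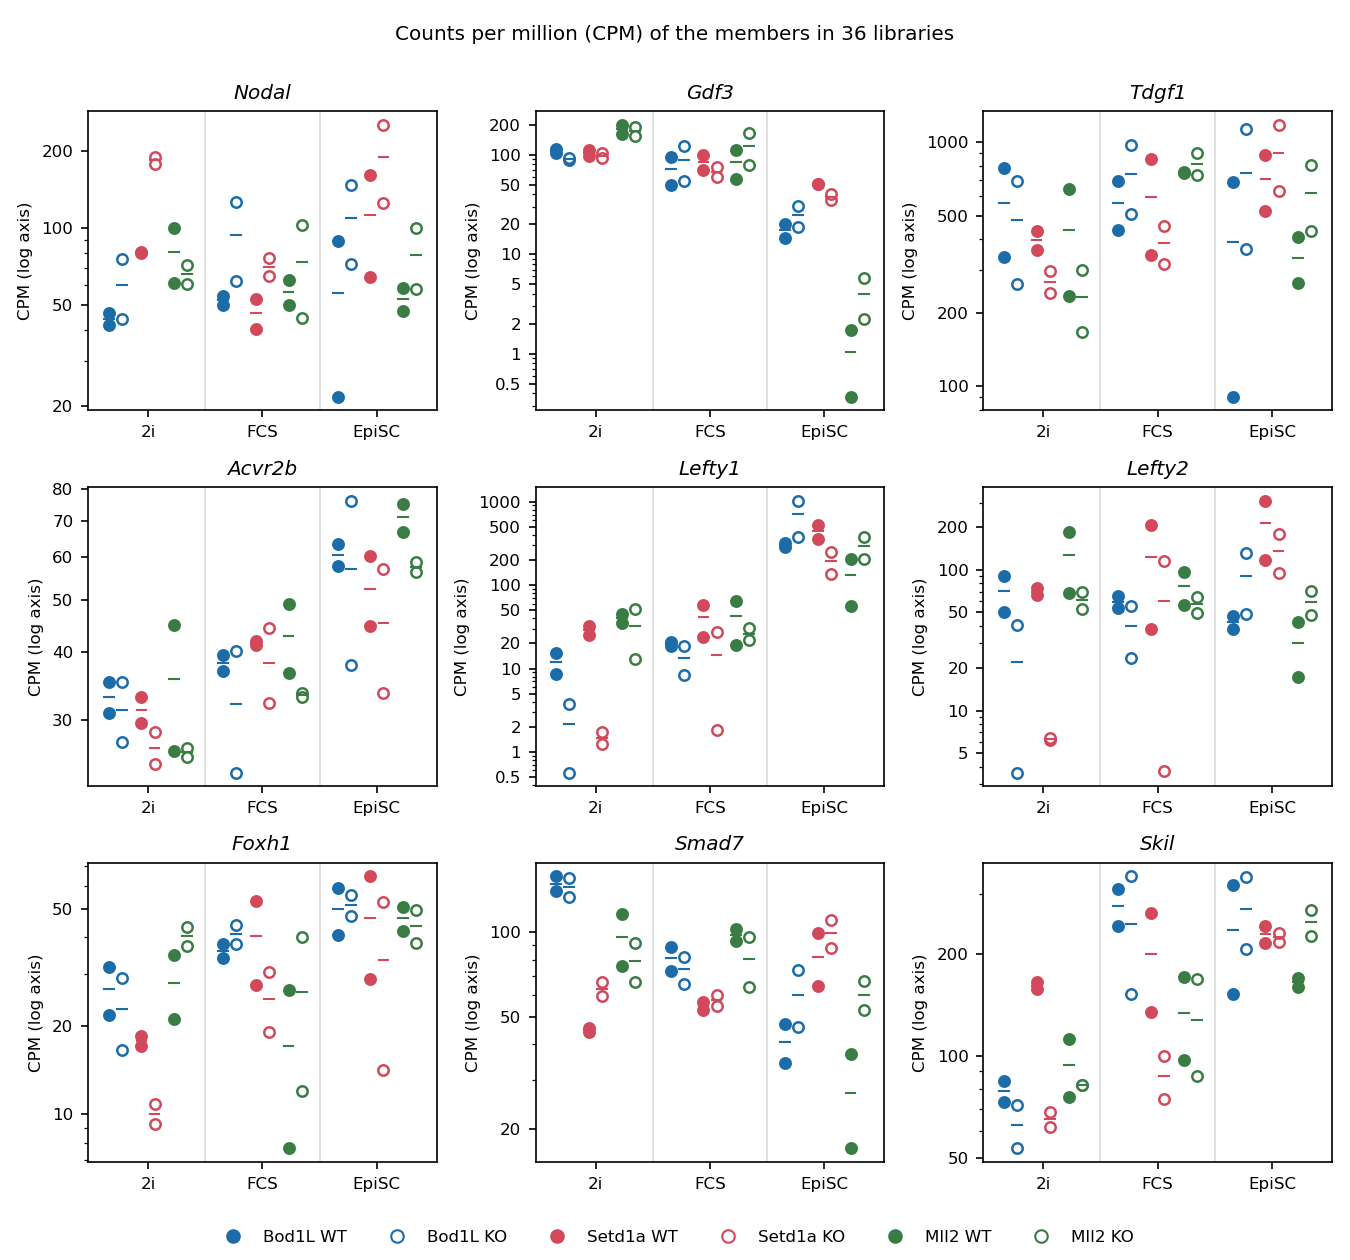
CPM (log axis) of the 9 genes in each of the 36 libraries, by medium (columns), line (colour) and genotype (filled points wild type, open points knockout), with a short bar at the mean of the 2 libraries of a group. Against their own levels in the other media, Lefty1 is at its highest and Gdf3 at its lowest median in EpiSC medium, and the Setd1a knockout in 2i holds Lefty1 at 1.23 and 1.74 CPM.

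The first question is how the pathway differs between media in wild-type cells. Each contrast weighs the 3 lines equally in one edgeR quasi-likelihood fit of all 18 groups, and a gene is called when its Benjamini-Hochberg adjusted p is under 0.05. From 2i to EpiSC medium Lefty1 rose and Gdf3 fell by the largest amounts among the members, Acvr2b, Skil and Foxh1 rose by about 1 on the log2 scale, Smad7 fell, and Nodal, Tdgf1 and Lefty2 were not called. That is 6 of 9 members, 4 higher and 2 lower, where 52.5% of all genes were called, 25.1% higher and 27.4% lower. Being called between these media was thus common among genes at large, and the count itself says little about the members. How many of all genes had no overlap between media or between lines, in wild-type or knockout libraries, was not counted.

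The ligands and their co-receptor came first in the chain. Nodal in wild type ranged from 41.5 to 100 CPM in 2i (median 70.5, n = 6), from 40.2 to 62.4 CPM in FCS (median 51.5) and from 21.8 to 161 CPM in EpiSC medium (median 61.2). These ranges overlapped throughout, and the EpiSC range enclosed both others. The log2 fold change of EpiSC against 2i was 0.07 ± 0.31 (SE), with an adjusted p of 0.887 in edgeR. Gdf3 in wild type ranged from 97.7 to 200 CPM in 2i (median 113), from 50 to 112 CPM in FCS (median 81.7) and from 0.37 to 50.8 CPM in EpiSC medium (median 17.3). All 6 EpiSC libraries stood below all 6 libraries in 2i. The fall was 3.72 ± 0.32 on the log2 scale against 2i (edgeR log2 fold change -3.72, adjusted p = 4.15e-09) and 3.04 ± 0.31 against FCS (log2 fold change -3.04, adjusted p = 1.93e-07). A block on replicate numbers across media lost the call against FCS (-2.12, edgeR adjusted p = 0.0578). Tdgf1 in wild type had medians of 397 CPM in 2i, 723 CPM in FCS and 467 CPM in EpiSC medium, with its lowest value, 90.3 CPM, in replicate 1 of Bod1L wild type in EpiSC medium. Its groups overlapped and it was not called in any wild-type comparison of media, where its log2 fold changes lay between -0.49 and 0.46.

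The receptor and the nuclear partner moved modestly. Acvr2b, a type II receptor that serves both Nodal and Activin, had wild-type medians of 32 CPM in 2i, 40.5 CPM in FCS and 61.8 CPM in EpiSC medium. The lowest EpiSC library, at 44.7 CPM, lay just under the highest in 2i, at 45 CPM. The rise from 2i to EpiSC medium was 0.87 ± 0.18 on the log2 scale (edgeR adjusted p = 0.000366) and from FCS 0.57 ± 0.18 (adjusted p = 0.0137). Foxh1, the forkhead factor that brings Smad2 complexes to their targets, had wild-type medians of 21.3, 30.8 and 46.5 CPM in 2i, FCS and EpiSC medium. Its rise from 2i to EpiSC medium was 1.01 ± 0.34 (edgeR adjusted p = 0.0149). That call was lost when either of 2 libraries was left out: without replicate 2 of Mll2 wild type in 2i the value was 0.90 (edgeR adjusted p = 0.0505), and without replicate 2 of Setd1a wild type in EpiSC medium 0.78 (adjusted p = 0.0678).

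The targets that feed back on the signal did not move as one. Lefty1 in wild type ranged from 8.66 to 45.6 CPM in 2i (median 28.9), from 18.6 to 65.3 CPM in FCS (median 22.3) and from 56.9 to 529 CPM in EpiSC medium (median 305). All 6 EpiSC libraries stood above all 6 in 2i, and 1 of them, replicate 2 of Mll2 wild type at 56.9 CPM, lay under the highest FCS library. The rise was 3.44 ± 0.56 on the log2 scale against 2i (edgeR adjusted p = 2.39e-05) and 3.01 ± 0.55 against FCS (adjusted p = 0.000165). Lefty2, the close copy of Lefty1, had wild-type medians of 71.2, 61 and 45 CPM in 2i, FCS and EpiSC medium, with ranges of 50 to 187, 38.2 to 208 and 17.4 to 310 CPM. No wild-type medium comparison called it, and EpiSC against 2i gave a log2 fold change of -0.40 ± 0.58. Smad7, which blocks the receptors, had wild-type medians of 96, 81.1 and 42 CPM. It fell by 0.95 ± 0.18 from 2i to EpiSC medium (log2 fold change -0.95, edgeR adjusted p = 0.00016) and by 0.76 ± 0.18 from FCS (log2 fold change -0.76, adjusted p = 0.00199). With the block on replicate numbers across media neither passed (-0.9, edgeR adjusted p = 0.11, and -0.64, adjusted p = 0.277). Skil had wild-type medians of 98.1, 206 and 193 CPM. It was the single member called from 2i to FCS in wild type, with a log2 fold change of 0.88 ± 0.23 (edgeR adjusted p = 0.00583), and that count of 1 of 9 stands against 27.8% of all genes. With the same block Skil was at 0.84 (edgeR adjusted p = 0.0544). From FCS to EpiSC medium 4 of 9 members were called, Gdf3, Smad7, Lefty1 and Acvr2b, against 41% of all genes.

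**Figure D2:**
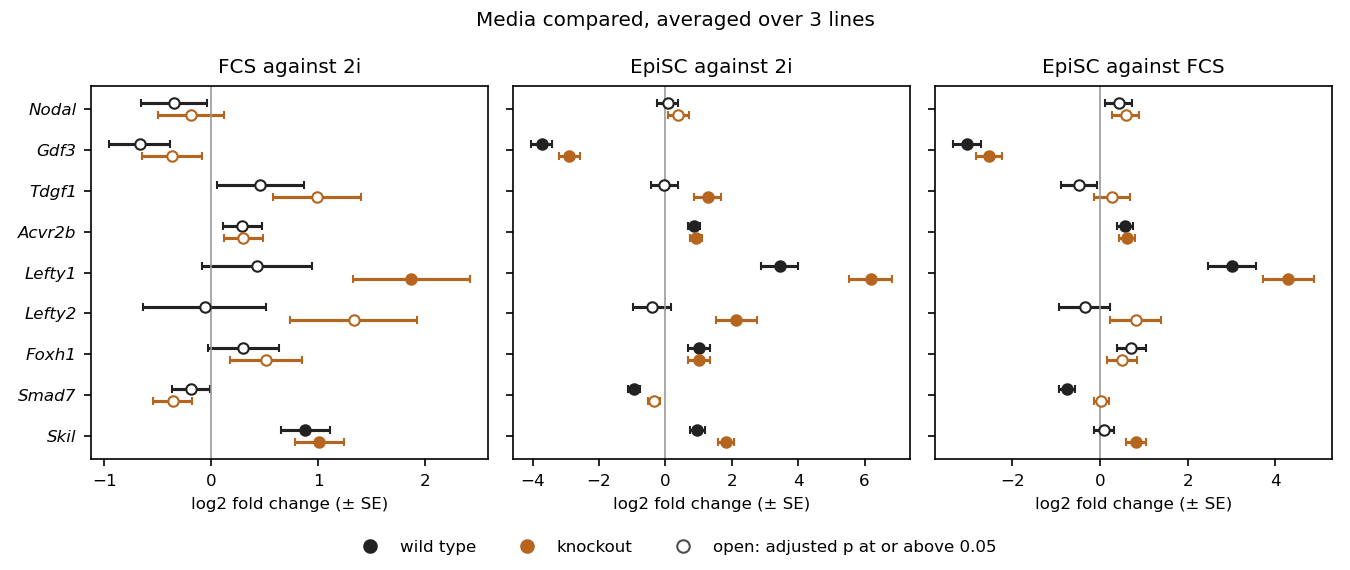
Log2 fold change (horizontal axis, ± SE) of each member between media, averaged over the 3 lines, in wild-type (black) and knockout (brown) cells, with filled points for an adjusted p under 0.05. Lefty1 and Gdf3 lie farthest from 0 on opposite sides in EpiSC against 2i, at 3.44 and -3.72 in wild type.

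The ratio of the 2 Lefty genes shows the shift most plainly. Per unit of gene length, Lefty1 stood at 0.138 to 1.46 times Lefty2 in the 12 libraries in 2i (median 0.382) and at 0.351 to 0.997 times in the 12 in FCS (median 0.512). In the 12 EpiSC libraries it stood at 1.12 to 11.7 times (median 6.92). Lefty1 exceeded Lefty2 in 12 of 12 EpiSC libraries, in 1 of 12 libraries in 2i and in none of 12 in FCS. The 3 lowest EpiSC ratios, 1.12, 1.72 and 3.93, came from libraries of the Setd1a line. In EpiSC medium that line also held the most naive markers, 656 to 855 CPM in sum, against 69.8 to 305 CPM in the other lines. The part of this in the ratios was not tested. Reads that fit both genes could alter these values, and that was not measured.

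The same media comparisons in knockout cells used other libraries. From 2i to EpiSC medium 7 of 9 members were called, 6 higher and 1 lower, against 49.4% of all genes, 25.9% higher and 23.5% lower. Lefty1 rose from a median of 2.76 CPM in 2i (0.565 to 51.3, n = 6) to 312 CPM in EpiSC medium (135 to 1030), with no overlap. That was a log2 fold change of 6.18 ± 0.65 (edgeR adjusted p = 7.06e-08). Lefty2 rose from a median of 23.6 CPM (3.63 to 69.4) to 82.8 CPM (47.6 to 179), a log2 fold change of 2.14 ± 0.61 (edgeR adjusted p = 0.00545). With the block on replicate numbers across media Lefty2 was at 2.07 (edgeR adjusted p = 0.0521). Skil also separated, with 53.4 to 82 CPM in 2i and 207 to 336 CPM in EpiSC medium (1.83 ± 0.23, edgeR adjusted p = 1.18e-06). Gdf3 fell from a median of 98.1 CPM to 24.8 CPM, a log2 fold change of -2.89 ± 0.30 (edgeR adjusted p = 7.8e-08). Acvr2b rose by 0.92 ± 0.18 (edgeR adjusted p = 0.000219), Foxh1 by 1.01 ± 0.34 (adjusted p = 0.0162) and Tdgf1 by 1.27 ± 0.42 (adjusted p = 0.0145). With that block Foxh1 was at 0.86 (edgeR adjusted p = 0.0943).

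Single libraries decided some of these knockout calls. Foxh1 was no longer called without replicate 1 of Bod1L knockout in 2i (0.89, adjusted p = 0.0531, edgeR) or replicate 2 of Setd1a knockout in EpiSC medium (0.59, adjusted p = 0.136). Tdgf1 was no longer called without replicate 2 of Bod1L knockout in 2i (1.09, adjusted p = 0.0533, edgeR) or replicate 2 of the same cells in EpiSC medium (0.93, adjusted p = 0.0783). From 2i to FCS 2 of 9 members were called in knockout cells, against 30.5% of all genes. They were Lefty1 (1.87 ± 0.55, edgeR adjusted p = 0.0123) and Skil (1.01 ± 0.23, adjusted p = 0.00187). With the block on replicate numbers across media Lefty1 was at 1.58 (edgeR adjusted p = 0.244). The Lefty1 call rested on replicate 1 of Setd1a knockout in FCS, since without it the value was 0.83 (adjusted p = 0.237, edgeR). From FCS to EpiSC medium 4 of 9 members were called, against 43.9% of all genes, namely Gdf3 (-2.53), Lefty1 (4.30), Skil (0.82) and Acvr2b (0.62) as log2 fold changes. Acvr2b fell to 0.42 (adjusted p = 0.0574, edgeR) without replicate 2 of Bod1L knockout in EpiSC medium.

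Whether a medium effect differs between knockout and wild-type cells was tested with a contrast added after the data had been seen. For EpiSC against 2i the difference was 2.74 ± 0.75 for Lefty1 and 2.54 ± 0.83 for Lefty2 on the log2 scale. Neither passed: edgeR called 0 of 9 members and 0% of all genes, and the adjusted p of both was 1. At an unadjusted p under 0.05, 5 of 9 members and 959 of 23501 genes stood, and DESeq2 and limma-voom also called none. EpiSC against FCS (0 of 9 members, 0% of all genes, 2 members and 940 genes at an unadjusted p under 0.05) and FCS against 2i (0 of 9, 0% of all genes, 0 members and 1274 genes) gave no call either.

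The 3 wild-type lines differed in Gdf3 and Smad7. The change from 2i to EpiSC medium differed between lines for 2 of 9 members (F test of 2 contrasts in edgeR), against 3.37% of all genes, and the change from FCS to EpiSC medium for the same 2 members, against 2.89% of all genes. For FCS against 2i the count was 0 of 9, against 0.0553% of all genes, with 2 members and 2710 genes at an unadjusted p under 0.05 and none of the 9 called by DESeq2 or limma-voom. Averaged over media, 1 of 9 members differed between wild-type lines, Gdf3 (edgeR adjusted p = 0.00251), against 14.7% of all genes.

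Gdf3 in EpiSC medium stood at 20.1 and 14.6 CPM in Bod1L wild type, 50.4 and 50.8 CPM in Setd1a wild type and 0.37 and 1.72 CPM in Mll2 wild type. In 2i the same lines held 115 and 105, 112 and 97.7, and 163 and 200 CPM. The Mll2 line thus had the highest Gdf3 in 2i and the lowest in EpiSC medium, with no overlap between lines in the latter, and the fall differed between lines with an adjusted p of 0.000132 (edgeR). Relative to the Bod1L line, the change from 2i to EpiSC medium was 1.61 higher on the log2 scale in the Setd1a line and 4.76 lower in the Mll2 line (log2 difference -4.76).

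Smad7 in 2i stood at 158 and 140 CPM in Bod1L wild type, 45.8 and 44.3 CPM in Setd1a wild type and 76.1 and 116 CPM in Mll2 wild type. In EpiSC medium it stood at 34.3 and 47.1 CPM, 64.5 and 99.3 CPM, and 36.9 and 17.1 CPM. It was therefore lower in EpiSC medium than in 2i in both libraries of the Bod1L and Mll2 lines and higher in both of the Setd1a line. The difference between lines had an adjusted p of 0.000851 (edgeR), and 0.0071 for EpiSC against FCS. The fall of Smad7 averaged over lines, given above, does not describe the Setd1a line. Naive markers in EpiSC medium summed to 855 and 758 CPM in Setd1a wild type. They summed to 174 and 155 CPM in Bod1L wild type and 246 and 69.8 CPM in Mll2 wild type. The part of this in the line differences of Gdf3 and Smad7 was not tested.

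In the Setd1a line both Lefty genes were lower in knockout than in wild type in each of 6 pairs of libraries. Same-numbered knockout and wild-type libraries of a line and medium deviated together, so the 6 pairs are shown as pairs, and a fit with the pair as a block is given where it alters a call. How many of all genes moved the same way in all 6 pairs, or had groups apart in a medium, was not counted, here or for the lines below. Lefty1 in 2i stood at 1.23 and 1.74 CPM in knockout against 25.1 and 32.7 CPM in wild type. In FCS the pairs were 27.4 against 58.3 CPM and 1.83 against 23.9 CPM, and in EpiSC medium 135 against 359 CPM and 250 against 529 CPM. The 2 groups did not overlap in 2i or in EpiSC medium. In 2i, replicate 1 of knockout is among the libraries with higher library numbers, and its wild-type partner is not. Averaged over media the log2 fold change was -2.32 ± 0.55 (edgeR adjusted p = 0.00821), and it was -2.59 ± 0.40 with the replicate block. The averaged call held when any one of the 12 libraries was left out, with log2 fold changes from -3.33 to -2.02. In 2i alone it was -4.28 ± 1.05 (edgeR adjusted p = 0.0348). That call was lost without any one of the 4 libraries, with adjusted p-values from 0.107 to 0.353 and log2 fold changes from -4.51 to -4.03, and limma-voom did not make it (adjusted p = 0.14).

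Lefty2 had the same direction in those pairs. In 2i it stood at 6.2 and 6.41 CPM in Setd1a knockout against 73.7 and 66.4 CPM in wild type. In FCS the pairs were 116 against 208 CPM and 3.72 against 38.2 CPM, and in EpiSC medium 179 against 310 CPM and 94.5 against 117 CPM. Knockout was lower in 6 of 6 pairs, with a median log2 difference of -2.09, and the groups did not overlap in 2i. The averaged log2 fold change of -1.72 ± 0.60 did not pass (edgeR adjusted p = 0.0755). It passed in edgeR with the replicate block (-2.01 ± 0.32, adjusted p = 0.00012) and, without the block, when replicate 1 of knockout in FCS was left out (-3.06, adjusted p = 0.00204).

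Other measures also differed between knockout and wild type in the Setd1a line. The mitochondrial share of counts in 2i was 7.32 and 7.71% in knockout against 4.11 and 3.43% in wild type, in FCS 4.33 and 4.25% against 5.09 and 3.6%, and in EpiSC medium 6.27 and 3.89% against 3.42 and 1.98%. It was thus higher in knockout in both pairs in 2i and in EpiSC medium, without overlap between groups, and the same held in the Bod1L line (values below). The mesenchyme markers summed to 12.1 and 9.96 CPM in knockout against 4.18 and 5.09 CPM in wild type in 2i, 43.6 and 382 against 33.6 and 211 CPM in FCS, and 4170 and 177 against 1190 and 191 CPM in EpiSC medium. Knockout held more in 5 of 6 pairs, and the median log2 fold change of the 9 markers averaged over media was 1.36, with none called in edgeR. The 7 formative and primed markers summed to 181 and 191 CPM in knockout against 212 and 218 CPM in wild type in 2i, 446 and 377 against 1690 and 612 CPM in FCS, and 144 and 584 against 430 and 760 CPM in EpiSC medium. They were lower in knockout in every pair, and averaged over media 2 of 7 fell in edgeR. The list's median log2 change was -0.76. The part of these measures in the changes of the Lefty genes, Skil, Nodal and Foxh1 was not tested.

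Skil, the corepressor, stood at 68.4 and 61.9 CPM in Setd1a knockout against 157 and 165 CPM in wild type in 2i. In FCS the pairs were 100 against 264 CPM and 74.8 against 135 CPM, and in EpiSC medium 216 against 242 CPM and 231 against 215 CPM. The groups were apart in 2i and FCS and overlapped in EpiSC medium. The averaged log2 fold change was -0.84 ± 0.23 (edgeR adjusted p = 0.0215). That call in edgeR was lost without any one of 5 libraries, namely replicate 2 of knockout in 2i (-0.82, adjusted p = 0.0613), replicate 2 of wild type in 2i (-0.83, adjusted p = 0.0513), replicate 2 of knockout in FCS (-0.78, adjusted p = 0.0777), replicate 1 of wild type in FCS (-0.66, adjusted p = 0.0899) and replicate 1 of knockout in EpiSC medium (-0.83, adjusted p = 0.0615). With the replicate block it was -0.82 ± 0.12 (edgeR adjusted p = 5.47e-05).

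Nodal stood higher in the Setd1a knockout. It stood at 190 and 179 CPM in knockout against 80 and 80.8 CPM in wild type in 2i, at 76.3 and 64.7 against 52.9 and 40.2 CPM in FCS, and at 125 and 254 against 64.5 and 161 CPM in EpiSC medium. Knockout was higher in 6 of 6 pairs, without overlap between groups in 2i and FCS. The averaged log2 fold change of 0.85 ± 0.31 did not pass (edgeR adjusted p = 0.0934) and passed with the replicate block (0.87 ± 0.15, adjusted p = 0.000338) or without replicate 2 of wild type in EpiSC medium (1.12, adjusted p = 0.045). Foxh1 was lower in 6 of 6 pairs, by 0.29 to 1.03 on the log2 scale (differences from -1.03 to -0.29). Its averaged value was -0.67 ± 0.34 (edgeR adjusted p = 0.232), with the block -0.72 ± 0.12 (adjusted p = 0.000218), and without replicate 2 of knockout in EpiSC medium -1.09 (adjusted p = 0.0397). Gdf3 was lower and Smad7 higher in 6 of 6 pairs by smaller amounts, and neither passed in either fit.

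In counts, edgeR called 2 of 9 members in the Setd1a knockout averaged over media, against 8.85% of all genes, and 5 of 9 with the replicate block, against 26%. The block thus raised the share called among all genes as well as the members' count. In 2i the count was 1 of 9, against 1.69% of all genes, and 5 of 9 with the block (Lefty1, Lefty2, Skil, Nodal and Foxh1), against 12.4%. In FCS it was 0 of 9, against 0.762%, and with the block 1 of 9 (Skil, -1.12 ± 0.21), against 3.91%. In EpiSC medium it was 0 of 9, against 1.54%, and with the block 1 of 9 (Foxh1, -0.65 ± 0.21), against 11.9%. Foxh1 was lower in knockout in both pairs there (14.1 against 28.9 CPM and 52.7 against 64.5 CPM). In the fit without the block, which does not keep the pairs, Foxh1 was at 0.18 without replicate 1 of knockout and 0.21 without replicate 2 of wild type. Averaged over 2i and FCS only, 2 of 9 members were called in edgeR, against 3.43% of all genes. In FCS and EpiSC medium 1 and 0 members stood at an unadjusted p under 0.05 in edgeR, of 1543 and 2876 genes, and DESeq2 and limma-voom called none. Whether the Setd1a effect differed between media was tested as 2 contrasts, and edgeR called 0 of 9 members and 0% of all genes, with 0 members and 471 genes at an unadjusted p under 0.05 and no member called by DESeq2 or limma-voom.

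**Figure D3:**
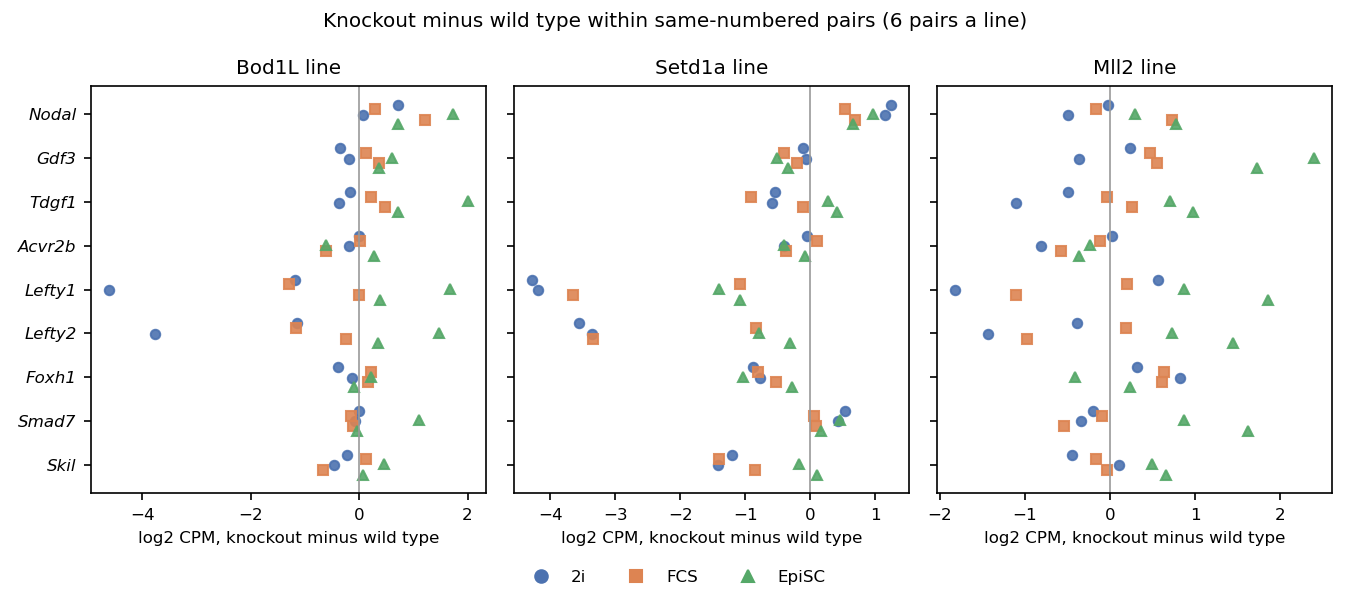
Difference in log2 CPM between knockout and wild type (horizontal axis) within each same-numbered pair of libraries, for the 9 members, with 1 panel a line and the medium given by colour and symbol. In the Setd1a line all 6 points of Lefty1, Lefty2, Foxh1 and Gdf3 lie below 0 and all 6 of Nodal and Smad7 above it. The share of all genes with all 6 points on the same side was not counted.

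In the Bod1L line Nodal was again higher in knockout in 6 of 6 pairs. It stood at 75.7 and 43.9 CPM in knockout against 46.3 and 41.5 CPM in wild type in 2i, at 61.8 and 126 against 50.1 and 54.4 CPM in FCS, and at 72.5 and 147 against 21.8 and 89 CPM in EpiSC medium. The groups did not overlap in FCS and overlapped in the other media. The averaged log2 fold change of 0.76 ± 0.31 did not pass (edgeR adjusted p = 0.411) and passed with the replicate block (0.79 ± 0.15, adjusted p = 0.0026) or without replicate 2 of wild type in EpiSC medium (1.21, adjusted p = 0.0332). Lefty1 in 2i stood at 3.79 and 0.565 CPM in Bod1L knockout against 8.66 and 15.3 CPM in wild type, and Lefty2 at 40.8 and 3.63 against 90.7 and 50 CPM. Both were lower in both pairs without overlap. With the replicate block edgeR called Lefty2 (-2.38 ± 0.57, adjusted p = 0.0273) and not Lefty1 (-2.64 ± 0.75, adjusted p = 0.0718). Without the block Lefty2 was at -1.66 (edgeR adjusted p = 1), and it moved to -4.28 without replicate 1 and -0.79 without replicate 2 of knockout. In EpiSC medium Lefty1 stood at 1030 and 374 CPM in knockout against 324 and 285 CPM in wild type and Lefty2 at 131 and 48.3 against 47.2 and 37.8 CPM, both higher in both pairs and not called in either fit. In that medium the block called Nodal (1.22 ± 0.27) and Tdgf1 (1.36 ± 0.26). Without the block Nodal was at 0.98 (edgeR adjusted p = 1), and leaving out 1 library moved it between 0.30 (without replicate 1 of wild type) and 2.33 (without replicate 2 of wild type). Tdgf1 was higher in knockout in both pairs there (364 against 90.3 CPM and 1130 against 686 CPM). Without the block Tdgf1 was at 0.95, and at -0.09 once replicate 2 of Bod1L knockout in EpiSC medium was left out. That refit does not keep the pairs, so it does not show how the blocked value depends on single libraries.

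The counts for Bod1L in edgeR were 0 of 9 in 2i, against 0.374% of all genes, 0 of 9 in FCS, against 0.191%, 0 of 9 in EpiSC medium, against 0.438%, and 0 of 9 averaged, against 2.03%. At an unadjusted p under 0.05 they were 1, 0, 0 and 1, of 989, 1074, 1146 and 1923 genes, and DESeq2 and limma-voom called none. With the block they were 1 of 9 in 2i, against 2.8%, 2 of 9 in EpiSC medium, against 2.19%, and 1 of 9 averaged, against 6.17%. A difference of the Bod1L effect between media was called for 0 of 9 members and 0% of all genes in edgeR, with 1 member and 244 genes at an unadjusted p under 0.05 and no member called by DESeq2 or limma-voom. The mitochondrial share of counts in 2i was 5.6 and 5.48% in Bod1L knockout against 4.31 and 4.22% in wild type. In FCS it was 3.89 and 2.46% against 3.89 and 3.62%, and in EpiSC medium 3.94 and 4.71% against 2.41 and 2.5%. Its part in the results was not tested. Summed mesenchyme markers in EpiSC medium were 5260 and 1230 CPM in Bod1L knockout and 6760 and 1180 CPM in wild type. Nodal, Tdgf1 and Acvr2b were at their lower EpiSC value in replicate 1 of both genotypes, which held more of those markers, and the part of these cells in the result was not tested.

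The Setd1a and Bod1L effects were set against each other directly. Averaged over media, the Setd1a effect was lower by 1.72 ± 0.74 for Lefty1 (log2 difference -1.72) and by 0.74 ± 0.32 for Skil (log2 difference -0.74), and the Nodal effects differed by 0.09 ± 0.44. None of the 9 passed in edgeR, against 0.00426% of all genes, with 2 members and 1204 genes at an unadjusted p under 0.05. With the replicate block 0 of 9 passed in edgeR, against 0.762% of all genes, and the nearest were Foxh1 (-0.72 ± 0.17, adjusted p = 0.0531) and Skil (-0.70 ± 0.17, adjusted p = 0.0578). Within 2i, FCS and EpiSC medium the counts were 0 of 9, against 0%, 0.00426% and 0.00426% of all genes, with 0 members at an unadjusted p under 0.05, where 424, 385 and 408 genes stood. DESeq2 and limma-voom called none in these 4 comparisons.

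In the Mll2 line no member moved one way in all 6 pairs. Gdf3, the ligand, stood in EpiSC medium at 2.22 and 5.84 CPM in knockout against 0.37 and 1.72 CPM in wild type. Its groups did not overlap, although all 4 values were far below the 156 to 200 CPM of the same line in 2i. Averaged over media Gdf3 was 0.80 ± 0.29 higher (edgeR adjusted p = 0.357), and with the replicate block 0.83 ± 0.12 (adjusted p = 0.000147). That average was not shared by all media, since edgeR with the block gave -0.07 ± 0.18 in 2i (adjusted p = 0.87) and 0.51 ± 0.18 in FCS (adjusted p = 0.282). In EpiSC medium alone edgeR with the block gave 2.04 ± 0.24 for Gdf3 (adjusted p = 0.000263) and 1.24 ± 0.23 for Smad7 (adjusted p = 0.00627). Without the block they were 1.93 (edgeR adjusted p = 0.623) and 1.16 (adjusted p = 0.534). Leaving out 1 library then moved Gdf3 between 1.08 (without replicate 2 of knockout) and 3.43 (without replicate 2 of wild type), and Smad7 between 0.71 (without replicate 2 of wild type) and 1.81 (without replicate 1 of wild type). Smad7 stood there at 67.3 and 53 CPM in knockout against 36.9 and 17.1 CPM in wild type, without overlap.

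In edgeR 0 of 9 members were called for Mll2 in 2i, against 0.464% of all genes, in FCS, against 0%, in EpiSC medium, against 0%, and averaged, against 0.694%. At an unadjusted p under 0.05 the counts were 0, 0, 2 and 1, of 2414, 615, 952 and 1980 genes, and DESeq2 and limma-voom called none. With the block they were 2 of 9 in EpiSC medium, against 2.16%, and 1 of 9 averaged, against 7.2%. The Mll2 effect differed between media for 0 of 9 members in edgeR, against 0.00426% of all genes, with 2 members and 798 genes at an unadjusted p under 0.05 and no member called by DESeq2 or limma-voom. With the block it differed in edgeR for 2 of 9, against 1.61%, and these were Gdf3 (adjusted p = 0.00307) and Smad7 (adjusted p = 0.0183).

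Replicates in EpiSC medium differed in a regular way. Nodal, Tdgf1 and Acvr2b were higher in replicate 2 in 6 of 6 groups, by medians of 1.02, 0.90 and 0.30 on the log2 scale, whereas Lefty2 was lower in replicate 2 in 6 of 6 groups (median difference -1.11). Across the 18 groups the replicate difference of Nodal and that of Tdgf1 had a Pearson r of 0.867, and those of Lefty1 and Lefty2 one of 0.752. Nodal and Lefty2 had 0.412, and over the 18 group means Nodal and Lefty1 had 0.0314. These are descriptions over groups that share lines and media. Replicate differences of knockout and wild type in EpiSC medium also went together (r = 0.826 in Bod1L, 0.799 in Setd1a and 0.739 in Mll2). The 6 EpiSC groups, and the 18 groups, are therefore not independent observations. How many of all genes had the same direction in all 6 EpiSC groups was not counted. The mesenchyme sum was higher in replicate 1 in 4 of those 6 groups, those of the Bod1L and Setd1a lines, and lay between 148 and 202 CPM in all 4 libraries of the Mll2 line, where the direction of Nodal, Tdgf1, Acvr2b and Lefty2 was the same.

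Genes whose group means were most like those of a member were ranked over the 12244 genes with a mean of at least 5 CPM, by Pearson r over 18 groups. Genes high in that order for Lefty1 were Nfatc4 (0.927), Orai3 (0.916), Tmem70 (0.913) and Rcbtb2 (0.911). For Nodal the first 5 were Bfar (0.81), Rapgef3 (0.792), Marveld1 (0.788), Kifc5b (0.782) and Dgat1 (0.77). For Lefty2 they were Utp11 (0.786), Pum2 (0.767), Ntan1 (0.752), Ubr7 (0.735) and Zfp2 (0.729). Lefty1 and Lefty2 themselves had an r of 0.708 over the 18 groups. Over the 12 groups in 2i and FCS alone, Lefty2 was the gene most like Lefty1 (r = 0.956).

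**Figure D4:**
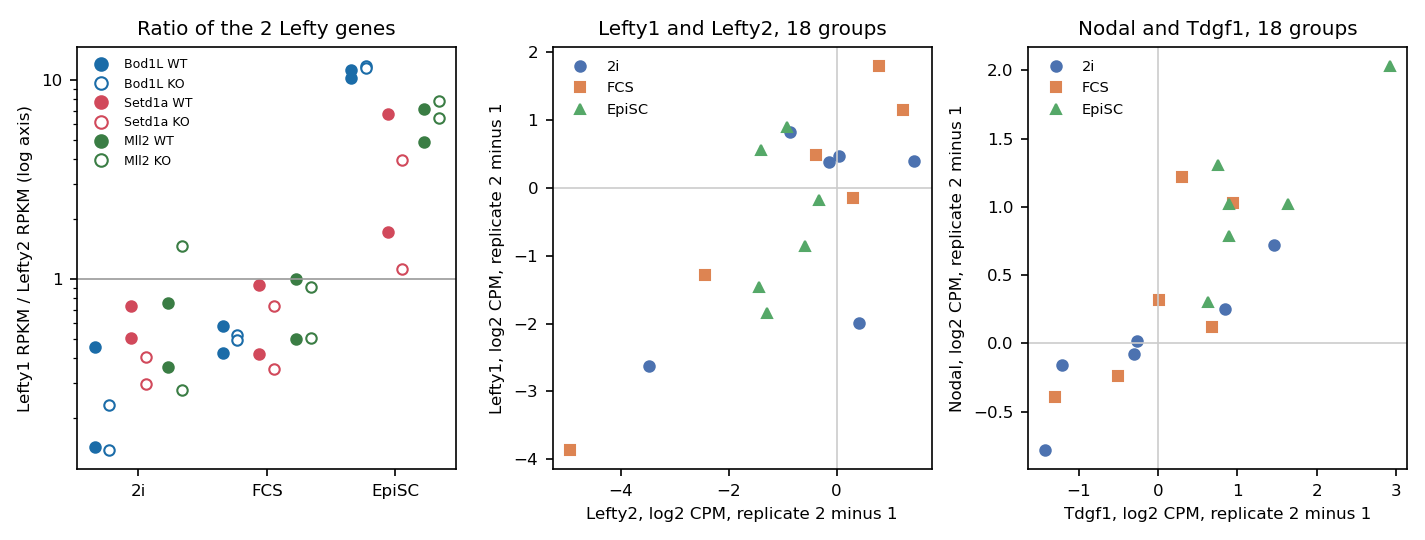
Left, Lefty1 RPKM divided by Lefty2 RPKM (log axis) in the 36 libraries by medium and line, where all 12 EpiSC points lie above 1. Centre and right, difference in log2 CPM between replicate 2 and replicate 1 in 18 groups, for Lefty1 against Lefty2 (r = 0.752, lowest point the Setd1a knockout in FCS) and for Nodal against Tdgf1 (r = 0.867).

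The wider pathway was described by 49 further genes in 7 lists, of which 46 were tested. From 2i to EpiSC medium in wild type 27 rose and 1 fell, with a median log2 fold change of 0.74 against -0.07 over all genes. Of all genes 52.5% were called, 25.1% higher and 27.4% lower. Of the 7 tested ligands 5 rose, among them Tgfb3 (4.34), Tgfb2 (4.20), Tgfb1 (3.06) and Inhba, which encodes the Activin A subunit and stood at 0 to 0.174 CPM in 2i and 0.422 to 4.29 CPM in EpiSC medium. Of the 6 secreted antagonists 4 rose. Among them Cer1, which encodes Cerberus, an inhibitor of Nodal, had no count in the 6 wild-type libraries in 2i and stood at 0.192 to 145 CPM in EpiSC medium. Of the 9 mesendoderm targets 7 rose, among them Fgf8 (5.12), Wnt3 (3.54), Lhx1 (0 to 0.346 CPM in 2i and 0.346 to 118 CPM in EpiSC medium) and Foxa2 (0.0499 to 0.174 and 0.192 to 83.3 CPM). Smad3, which relays the signal, rose by 1.66, and Pcsk6, a convertase that cleaves the Nodal precursor, fell by 3.88 (log2 fold change -3.88). Inhba and the Tgfb genes are also made by mesenchyme, whose markers rose in the same libraries, and the part of those cells was not tested. The median sums of primitive endoderm and neural markers were also higher in EpiSC medium than in 2i (90 against 11.9 CPM and 406 against 65.6 CPM), and that of trophoblast markers was not (11.1 against 13.4 CPM). The part of such cells in the pathway genes was not tested either.

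Of the other pathway genes Acvr2a, a second type II receptor, rose in the Setd1a knockout averaged over media (0.57, edgeR adjusted p = 0.0313) and Tgif2, a corepressor, fell (-0.55, adjusted p = 0.0472). That is 2 of 46, against 8.85% of all genes, with a median of 0.03 in the list and 0.07 over all genes. Of the BMP branch, the sister pathway through Smad1 and Smad5, 11 genes were tested. From 2i to FCS in wild type 4 rose and 2 fell, and Id1 (4.19), Id2 (3.6), Bmp4 (3.23) and Id3 (1.84) changed most, where 27.8% of all genes were called.

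Promoter sequences from RefSeq (GRCm38.p6, 250 bases before to 50 after the start) were found for 3 of the 9 members, Nodal, Tdgf1 and Acvr2b. A search of both strands for the Foxh1 motif AATCCACA, its looser form AATNCACA, which includes the first, and the Smad motif CAGACA found no match in these 3 windows. Of all 32851 promoters of the same length, 0.855%, 3.6% and 21% held them. The absence says only that these letters do not occur in these windows.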

How the data were processed

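Per the file headers and the submitters' processing notes, the authors aligned single-end strand-specific reads with GSNAP to GRCm38 and counted them per Ensembl 87 gene with featureCounts 1.5.2, by strand and from primary alignments of mapping quality 1 or more, and deposited raw counts. The 92 spike-in rows held 0 counts and were left out. The members, lists and rules for named genes were chosen with earlier results of these data known. Named were the 9 members, of the other lists at most the 4 genes of largest change past the threshold, and the 5 genes most like Nodal, Lefty1 and Lefty2, of which 1 is not reported here.

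One edgeR 4.0.16 quasi-likelihood model of the 18 groups was fitted (R 4.3.3, TMM, filterByExpr with a minimum count of 10, 18 residual degrees of freedom) to 23501 genes, with Benjamini-Hochberg adjustment over them. It was run on simulated counts with known changes in the Setd1a knockout. These were drawn independently for each library, without pairs and without line or medium differences. They therefore could not test how the model handles paired libraries. Of 32 comparisons, 3, on medium effects differing between knockout and wild type, were added after the data were seen. Same-numbered knockout and wild-type libraries deviated together in 9 of 9 line and medium combinations (r from 0.401 to 0.848 over 12244 genes), so the block by pair (18 pairs, 9 residual degrees of freedom) is given where it alters a call. P-values measure the spread between libraries labelled biological replicates. RPKM used the deposited gene lengths, and log2 CPM a prior count of 2. Other size factors, no filter, DESeq2 1.42.0, limma-voom (limma 3.58.1), smaller fits and each library left out were tried, the last with the genes and dispersion trend of the full fit. Leaving EpiSC medium out of the average was chosen after seeing the data.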

Additional observations from a re-analysis of the deposited data

Results flagged for a closer look

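The medium effects on 2 members differed between the 3 wild-type lines. For Gdf3 the test of the difference (edgeR, 2 contrasts) gave an adjusted p of 0.000132 for EpiSC medium against 2i and 0.000317 for EpiSC medium against FCS. For Smad7 it gave 0.000851 and 0.0071. Relative to the Bod1L line, the EpiSC against FCS change of Gdf3 was 1.32 higher on the log2 scale in the Setd1a line. For the Mll2 line the log2 difference was -4.28. The Mll2 value rests on Gdf3 at 0.37 and 1.72 CPM. All 4 calls held when any one library of the groups compared was left out.

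With the replicate block, the Mll2 knockout effect differed between media for Gdf3 (edgeR adjusted p = 0.00307) and for Smad7 (adjusted p = 0.0183). Without the block neither was called, with an adjusted p of 1 for both. No group had enough libraries for a test of single outlying values.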

How the results depend on the processing

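With RLE or upper quartile size factors the count of members called stayed the same, or within 1.5 times, in all 32 comparisons. Without the filter on low counts edgeR tested 39460 genes and called more members, given here with the share of all genes called at that setting. Bod1L had 2, 1 and 1 in 2i, EpiSC medium and averaged (0.378, 0.205 and 1.17%). Setd1a had 4, 2, 1 and 5 in 2i, FCS, EpiSC medium and averaged (1.96, 0.611, 1.79 and 6.9%). Mll2 had 2 and 1 in EpiSC medium and averaged (0.317 and 1.74%). From 2i to FCS there were 4 in wild type and 4 in knockout (17 and 18.1%). Between wild-type lines there were 2, 5, 6 and 5 for FCS against 2i, EpiSC against 2i, EpiSC against FCS and averaged (3.97, 7.9, 6.52 and 12.8%). Knockout effects differed between media for 2, 2 and 4 in Bod1L, Setd1a and Mll2 (0.0304, 0.302 and 0.514%). Setd1a minus Bod1L had 1 and 2 in EpiSC medium and averaged (0.0228 and 0.16%). Medium effects differed between genotypes for 2, 3 and 2 in FCS against 2i, EpiSC against 2i and EpiSC against FCS (0.231, 0.193 and 0.117%). The cause was not tested. With the replicate block the knockout counts were 1, 2 and 1 (Bod1L in 2i, EpiSC medium and averaged), 5, 1, 1 and 5 (Setd1a in 2i, FCS, EpiSC medium and averaged), and 2, 1 and 2 (Mll2 in EpiSC medium, averaged and differing between media). Between media, same-numbered libraries deviated together less or not at all (r from -0.143 to 0.413 in wild type and from -0.25 to 0.237 in knockout). Between knockout and wild type r was 0.401 to 0.848, a range that the highest value, Setd1a wild type in FCS with 2i, just reached. A block on replicate numbers across media gave 0 (FCS against 2i) and 2 (EpiSC against FCS) in wild type and 1 (FCS against 2i) in knockout. The members whose calls it lost are named with the media results above. DESeq2 called 2 members for Setd1a in 2i and 4 averaged. For Setd1a in 2i limma-voom and a fit of that line alone called 0, and limma-voom called 2 and 1 from 2i to FCS in wild type and knockout.

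Leaving out 1 library gave from 0 to 1 member for Bod1L averaged, 0 in every case for Setd1a in 2i, from 1 to 3 for Setd1a averaged, from 1 to 2 from 2i to FCS in wild type and from 1 to 4 in knockout. The 4 arose without Bod1L knockout in 2i replicate 1, and the 2 without Bod1L or Mll2 wild type in FCS replicate 2. A value changed sign in 3 cases, for 2 results that were called with the replicate block and not without it (the fit the libraries were left out of): Foxh1 in Setd1a in EpiSC medium (0.18 and 0.21, over a range from -1.73 to 0.21) and Tdgf1 in Bod1L in EpiSC medium (-0.09, over a range from -0.09 to 3.05). The Setd1a call rate over all genes also moved, from 2081 of 23501 genes to 6112 with the block and to 807 without EpiSC medium. With 2 libraries a group, the number of libraries limits every value, and the lowest counts of a member were 12 for Gdf3 in EpiSC medium and 19 for Lefty1 in 2i.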
